A study of Mus musculus with 3 samples.

Results

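Cluster 2 of the blood matrix is a group in which most cells, though not all, carried the RNA of microglia, the resident macrophages of the brain. Its members were all cells of the blood matrix that the authors' updated annotation places in cluster 2: 468 of 2924 blood cells, and of 11510 listed cells in the 3 deposited matrices. The assay was CITE-seq, in which RNA and the tags of antibodies bound to the cell surface are sequenced together for every droplet. The 8 samples were stained with 35 antibodies, marked with a hashing antibody per sample, whose tag names it, and loaded as 1 pool.

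All mice were 2 to 3 month old C57Bl/6 females that carried Cx3cr1CreERT, a tamoxifen-switched recombinase driven from the locus of Cx3cr1, the fractalkine receptor, which is active in microglia and monocytes. The arm labelled control had only this allele. The arm labelled depleted also had ROSA-iDTR, a receptor for diphtheria toxin that Cre switches on. Both arms received tamoxifen, rested for 1 month and then received diphtheria toxin. The blood came from mice with brain metastases, about 2 weeks after carotid injection of E0771, a mouse mammary tumour line, and was taken by heart puncture, before perfusion, and freed of red cells. The naive brains came from other mice of the same genotypes, without metastases, and the brains with metastases from mice of the same kind as the blood; brain cells were digested and enriched on Percoll. Each arm and tissue used here was 1 hashed sample, from 1 brain hemisphere or from peripheral blood. Cells of the brain with metastases were not mapped to arms and were used as 1 pool. There were thus no replicates and no tests, intervals cover counting error only, and arms are called by their labels. The toxin receptor transgene was not analysed here.

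Microglia settle in the brain before birth and renew themselves there, and they do not belong to the circulating blood cells. They read purines released by other cells through P2ry12, carry the surface protein Tmem119, and make C1q, the first component of the complement cascade, which tags debris and synapses for removal. Blood monocytes and neutrophils come from the bone marrow and carry other programmes, among them Ly6c2 and Ccr2 in classical monocytes and the calgranulins S100a8 and S100a9 in neutrophils.

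The hashtags decide which tissue and arm a droplet is assigned to, so the 4 that bear on these cells are shown, 5′ to 3′, with capitals where a base differs from the other 3 tags at the same position.
M-HTO-7, blood, labelled control: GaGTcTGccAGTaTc
M-HTO-8, blood, labelled depleted: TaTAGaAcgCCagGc
M-HTO-1, naive brain, labelled control: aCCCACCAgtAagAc
M-HTO-4, naive brain, labelled depleted: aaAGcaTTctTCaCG
All are 15 bases long. The closest pair among these 4 differed at 11 bases, and the closest pair among all 8 at 7. M-HTO-7 was assigned to 1371 blood cells and M-HTO-8 to 1553, each with 234 cells of cluster 2. Cluster 2 therefore took 17.1% of the blood sample labelled control (95% Clopper-Pearson interval 15.1 to 19.2) and 15.1% of the one labelled depleted (13.3 to 16.9), and the intervals overlap.

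The label was checked against its markers. Levels are CP10k, the depth-corrected UMIs (captured RNA molecules) of a gene per 10000 of all genes, summed over the cells of a group. P2ry12 (chr3:59216271-59262985, GRCm38.p6) stood at 5.74 CP10k in cluster 2 (exact Poisson interval 5.46 to 6.02) and 0.138 in all other blood cells. Tmem119 (chr5:113793729-113800396) stood at 4.41 (4.17 to 4.66) against 0.0826, and C1qa (chr4:136895916-136898844) at 59.6 (58.7 to 60.5) against 0.948. Of the 16 microglia markers, 15 were at least 2-fold higher than in the other blood cells, and 5 were among the 10 genes with the highest ratio, C1qc, C1qa, C1qb and Fcrls among them. The exception was Selplg, a selectin ligand that neutrophils share, at 7.89 against 6.38. The cluster was also led by Mgp, a gene of fibroblasts and vessel walls, and cells with little microglial RNA were part of it, as given further on.

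Most of these droplets were listed a second time, in a brain matrix. Of the 468 barcodes, 139 were also in the naive brain only (29.7%), 195 in the brain with metastases only (41.7%) and 53 in both (11.3%). The 81 barcodes in no brain matrix made up 17.3% (14.0 to 21). Both arms had this pattern, with 192 of 234 shared in the sample labelled control (82.1%) and 195 of 234 in the other (83.3%). Among the other 2456 blood cells 18.2% were shared (16.7 to 19.7), from 7.66% of the neutrophils to 83.9% of cluster 6, a group led by Rhox5, Wfdc2 and the keratin Krt8. Counting only barcodes in no brain matrix, cluster 2 held 42 of 969 blood cells labelled control (4.33%, 3.14 to 5.81) and 39 of 1122 labelled depleted (3.48%, 2.48 to 4.72). The share of cluster 2 in the blood thus moved more with the shared barcodes than with the arm.

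**Figure D1:**
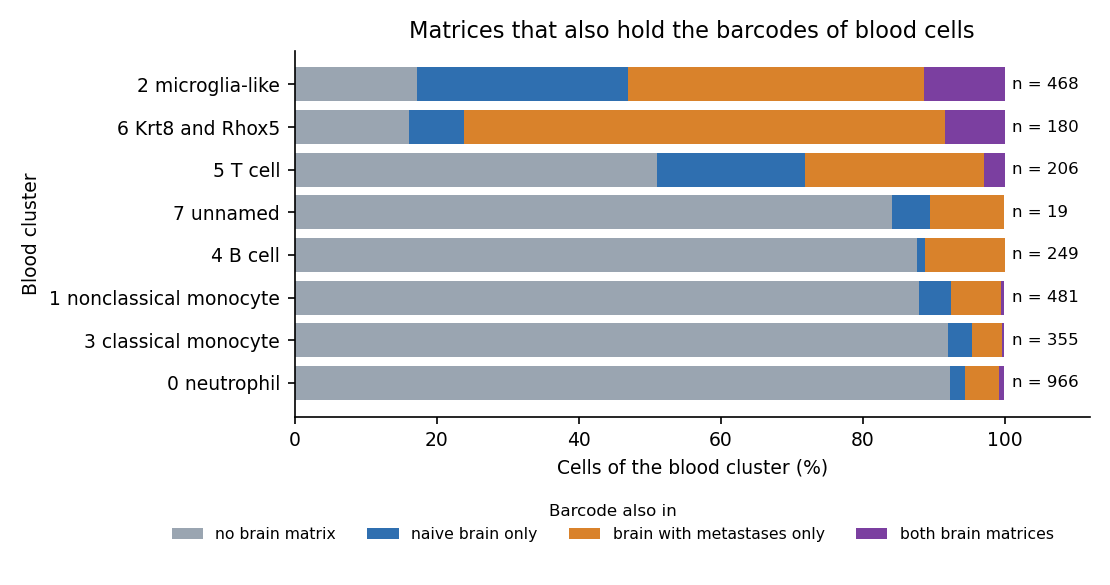
Share of the cells of each blood cluster (x axis, %) whose barcode was also in the naive brain matrix, the matrix of the brain with metastases, both or neither (colours), with the number of cells at the right of each bar. Clusters 2 and 6 stand apart, with 82.7% and 83.9% of barcodes shared, from the neutrophils at 7.66%.

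In the 192 cluster 2 barcodes that were also in the naive brain, the totals of raw RNA UMIs, antibody tags and all tags were equal in both annotations for all 192, and the hashtag totals were equal for 0. The naive brains came from mice without metastases, so each of these droplets was assigned to samples of different mice. The arm given in the blood and the arm given in the naive brain were the same for 101 of 192 (52.6%, 45.3 to 59.8) and different for 91. Of the 95 labelled control in the blood, 67 were labelled depleted in the naive brain, and of the 97 labelled depleted in the blood, 73 were labelled depleted in the naive brain. The arm of a shared barcode thus depended on the matrix in which it was read.

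The hashtag counts of cluster 2 were mixed. For each cell, the tag counts outside the antibody total were taken, a total that holds the hashtags of the pool. It spanned up to 13 tags for 8 hashtags, and what the others are is not given. The counts of the blood hashtags were set against all of these tag counts. The blood hashtags made up a median of 25.6% of them in cluster 2 (quartiles 7.76 and 51.2), against 90.0% in the neutrophils, 95% in the nonclassical monocytes, 92.1% in the classical monocytes and 95.7% in the B cells. Other clusters were low as well, with 47.6% in the T cells and 4.72% in cluster 6. By overlap the medians were 26.6% for barcodes in the naive brain only, 32.1% in the brain with metastases only, 11.4% in both and 18.8% in no brain matrix. The median of the barcodes listed only in the blood thus lay within the range of the shared groups. It lay below the 92.9% of all other unshared blood cells together, though not below that of cluster 6, whose unshared barcodes had 4.71%. Among the 81 unshared cells, 23 (28.4%) had at least 50% of these counts from the blood hashtags, as had 126 of all 468 (26.9%) and 2106 of the 2456 other blood cells (85.7%). In the barcodes of the naive brain only, the blood hashtags and those of the naive brain (median 49.7%) together reached a median of 96.1% of the counts. In those of both brain matrices the same sum was 51.1%. The naive hashtags outnumbered the blood hashtags in 115 of the 192.

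**Figure D2:**
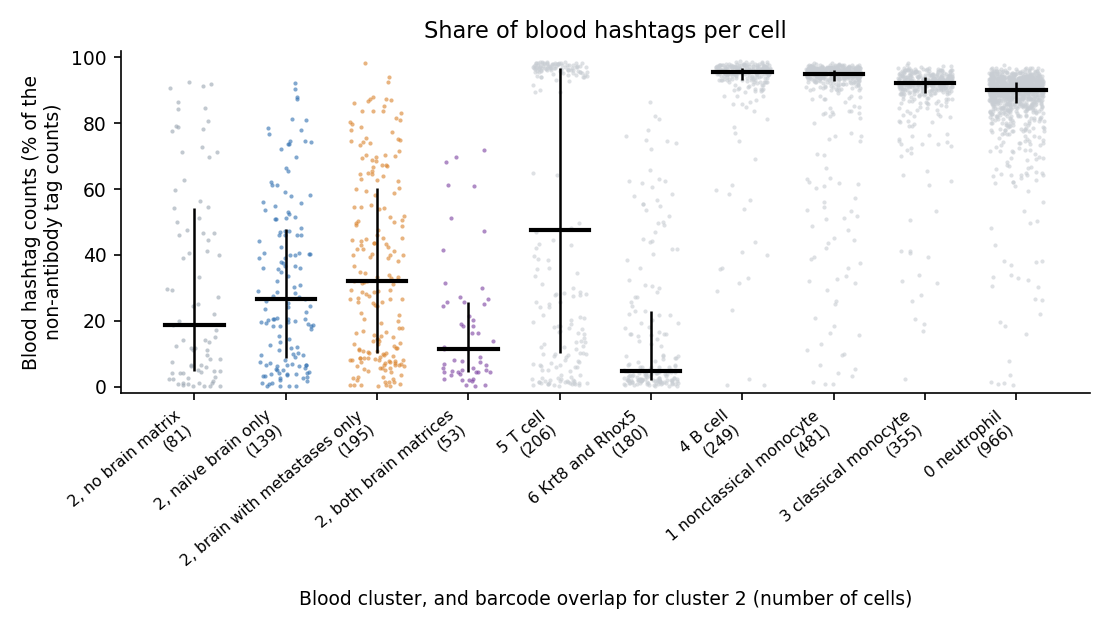
Blood hashtag counts as a percentage of the non-antibody tag counts (y axis) for each cell (points), by blood cluster and, for cluster 2, by barcode overlap, with medians (thick bars) and quartiles (thin lines). The 4 groups of cluster 2 have medians of 11.4% to 32.1%, while the neutrophils, monocytes and B cells have medians of 90.0% to 95.7%, the T cells 47.6% and cluster 6 4.72%.

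Cluster 2 cells were deeper than the other blood cells together, though cluster 6, at a median of 160798 raw UMIs, and cluster 7, at 22683, were deeper still. The cluster 2 median was 21085.5 raw UMIs, 4463 genes and 4715 antibody tags per cell, against 4263.5, 1557 and 2061.5 in the other blood cells. The median was 19773 raw UMIs for unshared barcodes, 17809 for the naive brain only, 21446 for the brain with metastases only and 30753 for both. The 2 arms had 20342.5 (control) and 22980.5 (depleted). Doublets were not called, since a caller needs raw counts, and whether a droplet held more than 1 cell was not tested.

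The authors' surface gates went another way than the RNA. A lymphoid gate (CD3, CD4, CD8, NK1.1 or B220) held 291 of the 468 cells (62.2%, 57.6 to 66.6), against 24.5% of the other blood cells, and CD11b+ myeloid gates held 24.4% against 66.1%. NK1.1+, the gate of natural killer cells, was the fullest with 103 cells (22%). The RNA of those lineages did not exceed that of the other blood cells, a pool that holds the T cell cluster. The summed T cell markers reached 4.46 CP10k in cluster 2 and 5.37 in the pool, and the NK cell markers 2.46 and 3.92. Per cell, the median T cell sum was 0 in cluster 2 and 52.4 in the T cell cluster. Its upper quartile was 3.01 in cluster 2, 16.2 in cluster 2 barcodes of both brain matrices, and 0 in neutrophils, monocytes and B cells. Some cluster 2 cells thus carried T cell RNA. Shared barcodes were in a lymphoid gate in 65.6% and unidentified in 8.27%, whereas unshared ones were in a lymphoid gate in 45.7%, unidentified in 38.3%, and CKit+, a separate status, in 23.5%. In the naive brain annotation, which has its own gates, 145 of the 192 barcodes listed there (75.5%, 68.8 to 81.4) fell in the gate of CNS-native myeloid cells, against 45.1% of the other naive brain cells.

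Against the other blood cells, cluster 2 differed across whole groups of genes. These genes took part in the clustering, so the values describe the cluster and test nothing. Genes nearly absent from the other blood cells were measured only through cluster 2, which favours counts past 2-fold. Of 3525 genes at 0.5 CP10k or more on at least 1 side, 572 (16.2%) were at least 2-fold higher in cluster 2 and 315 (8.94%) at least 2-fold lower (25.2% either way), with a median log2 ratio of -0.09. Homeostatic microglia genes had 28 of 33 measured members at least 2-fold higher and none 2-fold lower, with a median log2 ratio of 2.72. Among them were Trem2, a lipid receptor, at 12.3 against 0.451 CP10k, Siglech, a sialic acid receptor, at 3.69 against 0.0516, and Sall1, a transcription factor that sets microglial identity, at 0.864 against 0.0143. Genes of disease-associated microglia had 17 of 23 at least 2-fold higher, with the lipid carrier Apoe at 76.5 against 14.7 and the matrix protein Spp1 (osteopontin) at 7.57 against 0.200. These are levels of the whole cluster, and Spp1 was not confined to barcodes with microglial RNA, as given further on.

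Secreted signals and lysosomal genes were high as well. Of 17 measured chemokines, 13 were at least 2-fold higher, and of 14 inflammatory cytokine genes 12 were. Ccl3 and Ccl4, attractants for monocytes and T cells, stood at 14.8 against 0.493 and 34.5 against 1.17 CP10k. Cxcl10, a ligand of the T cell receptor Cxcr3, stood at 12.7 against 0.789, and the monocyte attractant Ccl2 at 13.1 against 0.659. Tnf stood at 8.80 against 0.359, while Il1b, which neutrophils also make, was near level at 21.5 against 19.7. All 25 measured lysosomal genes were higher, 21 of them at least 2-fold, with the protease Ctsd at 54.3 against 5.51. Interferon response genes had 20 of 33 at least 2-fold higher and none 2-fold lower, with Isg15, a ubiquitin-like protein, at 6.63 against 1.43. Immediate early genes, which are switched on within minutes of a stimulus and also by tissue digestion, had 19 of 26 at least 2-fold higher, with Jun at 36.1 against 1.91 and Fos at 36.6 against 3.31; per the labels the brains were digested and no digestion is named for the blood, and the part of handling was not tested. Checkpoint and costimulation genes were higher in 7 of 8, 4 of them by 2-fold, with a median log2 ratio of 1.25. Among them Cd86, a costimulatory ligand of T cells, stood at 1.70 against 0.241, Vsir (VISTA) at 3.50 against 1.98 and Cd274 (PD-L1) at 0.758 against 0.489. For MHC class II, which presents antigen to CD4+ T cells, 5 of 7 genes were at least 2-fold higher, with H2-Aa at 16.8 against 6.64. That direction turned once only barcodes with at least 50% blood hashtags were kept on both sides, where the median log2 ratio went from 1.44 to -0.70.

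Transcripts of other cell types were present. Of the endothelial markers 8 of 9 measured, and of the mural and fibroblast markers 8 of 8, were at least 2-fold higher than in the other blood cells. Over all genes the share was 16.2%. Markers nearly absent from the other blood cells were measured only through cluster 2, which favours such counts. Cldn5, a tight junction protein of brain vessels, stood at 3.54 against 0.0961 CP10k, and Tagln, a contractile protein of smooth muscle, at 4.99 against 0.104. Of the blood cell markers, at least 2-fold lower than in the rest of the blood were 7 of 13 measured for neutrophils, 8 of 9 for nonclassical monocytes, 5 of 7 for B cells and 4 of 10 for classical monocytes. The erythroid markers went the other way, 4 of 4 being at least 2-fold higher, as was the 1 measured platelet marker, under the same floor. A minority of cells carried them. Per cluster 2 cell, both sums were 0 at the upper quartile, with highest values of 5424 (erythroid) and 310.4 CP10k (platelet). S100a8 stood at 57.5 CP10k in cluster 2 against 748.1 in the neutrophil cluster, 17.6 in the nonclassical monocytes, 4.10 in the classical monocytes and 6.60 in the B cells. The neutrophil markers summed to 183.1 against 788.4 CP10k in the other blood cells.

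Per barcode, 3 kinds of RNA could be counted, with thresholds of 100 CP10k that were set after the data were seen. Summed microglia markers reached 100 CP10k in 313 of the 468 barcodes (66.9%, 62.4 to 71.1). S100a8 and S100a9 together reached it in 195 (41.7%, 37.2 to 46.3), and 144 barcodes (30.8%) had both. Another 169 (36.1%) had the microglial RNA alone, 51 (10.9%) the neutrophil RNA alone and 104 (22.2%) neither. Of the microglial sum 23 barcodes lay between 50 and 100 CP10k and 52 between 100 and 200, and of the neutrophil sum 41 and 73. The same neutrophil level was reached by 99.2% of the neutrophil cluster, 6.03% of the nonclassical and 1.97% of the classical monocytes, 2.41% of the B cells and 17.0% of the T cell cluster, so the share in cluster 2 stood above that of each other cluster but the neutrophils.

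**Figure D3:**
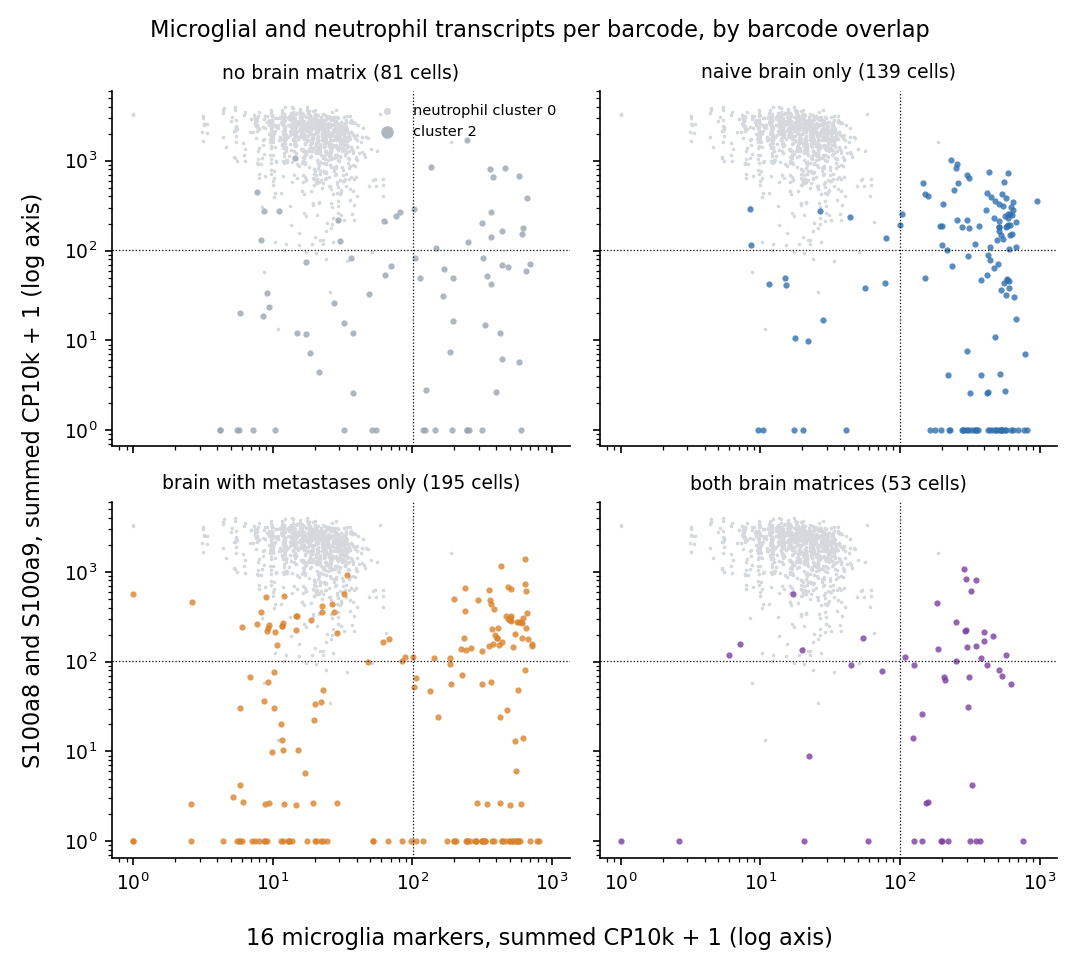
Summed microglia markers (x axis) against S100a8 plus S100a9 (y axis) in each barcode, both as CP10k + 1 on log axes, for the 4 overlap groups of cluster 2 (colour) over the neutrophil cluster (grey), with dotted lines at 100 CP10k. Cluster 2 barcodes lie on all sides of the lines, and those beyond both lines are 43.2% of the group shared with the naive brain only and 19.8% of the unshared group.

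The thresholds fix that barcodes with both kinds of RNA are high in each, so the levels within them are a description. P2ry12 was 8.94 CP10k in them and 7.84 in barcodes with microglial RNA alone, and C1qa was 88.4 and 83.8. S100a8 was 134.6 in them and 117.2 in barcodes with neutrophil RNA alone, both far below the 748.1 of the neutrophil cluster, and Cxcr2, the receptor by which neutrophils follow chemokines, was 4.33 and 4.29. The median raw depth was 17574 UMIs for both kinds and 31307 for microglial RNA alone. By the authors' gates, 40 of the 144 were Ly6C+Ly6G+, the gate that takes neutrophils, against 6 of the 169 with microglial RNA alone. The blood hashtag share was a median of 31.7% in the first and 18.4% in the second. Of the 104 barcodes with neither kind, 40 had endothelial and mural RNA of at least 100 CP10k, with Cldn5 at 26.4, Tagln at 25.3, C1qa at 1.67 and a blood hashtag median of 63.5%. All 104 together had Spp1 at 10.3, Cxcl10 at 17.8 and Isg15 at 10.5, against 9.52, 14.1 and 6.43 with microglial RNA alone. Other genes went the other way, with Apoe at 22.5 against 103.7, Ccl3 at 3.06 against 20.2 and Tnf at 2.66 against 12.9. Microglial RNA at that level was thus a property of 313 barcodes and not of the cluster as a whole.

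Detection of single genes showed the same at a set depth. With every cell thinned to 2000 corrected UMIs, which left out no cell, P2ry12 had a UMI in 44.0% of cluster 2 cells (39.5 to 48.6), 3.73% of neutrophils and 1.2% of B cells, types that should lack it. Unthinned shares were 55.3%, 7.14% and 2.81%, at median corrected depths of 6193.5, 4500 and 4674 UMIs. C1qa had a UMI in 74.1% of thinned cluster 2 cells and 14.8% of neutrophils, and Tmem119 in 42.9% and 1.45%. These shares lie far above those of the blood types that should lack the genes.

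Shared and unshared barcodes were then compared. Of 3282 genes measured, 39 (1.19%) were at least 2-fold higher in the shared barcodes and 102 (3.11%) at least 2-fold lower (4.3% either way), with a median log2 ratio of -0.02. All 16 microglia markers were higher in the shared barcodes and none by 2-fold, with a median of 0.49. All 33 homeostatic genes were higher, 1 of them by 2-fold, with a median of 0.39. C1qa stood at 42.9 CP10k without a brain matrix, 52.0 with the brain with metastases only, 55.5 with both and 81.5 with the naive brain only. P2ry12 followed with 4.88 (4.27 to 5.55), 4.28 (3.91 to 4.66), 4.44 (3.74 to 5.22) and 8.79 (8.16 to 9.44), where only the naive group stands apart from the others by its interval. Unshared cells thus carried the microglial genes too. Their P2ry12 was below that of the naive group and not below that of the other shared groups. Microglial RNA of at least 100 CP10k was found in 45 of the 81 unshared barcodes (55.6%), 107 of 195 with the brain with metastases only (54.9%), 41 of 53 with both (77.4%) and 120 of 139 with the naive brain only (86.3%).

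Other genes set the unshared barcodes apart more than microglial ones did. All 5 measured platelet markers were at least 2-fold lower in the shared barcodes, with a median log2 ratio of -3.40. Markers nearly absent from the shared cells were measured only through the unshared ones, which favours such a count. Ppbp, a platelet chemokine, stood at 4.82 CP10k in the unshared and 0.0423 in the shared cells, and its UMIs came from 7 of the 81. Camp, an antimicrobial granule peptide of young neutrophils, stood at 7.78 against 0.741. As a list the neutrophil markers were near level, with 3 of 12 at least 2-fold lower in the shared barcodes and a median of -0.12. Per unshared cell their sum was 210.8 CP10k at the upper quartile and 2632.2 at the highest. Erythroid markers moved furthest as a list, with a median of 4.98. Of 5 measured, 4 were at least 2-fold higher in the shared barcodes and 1 at least 2-fold lower. A minority of cells carried them: their sum per shared cell was 0 at the upper quartile and 5424 CP10k at the highest. Also higher there was Cldn5, at 4.06 against 0.968, and 6 of 10 endothelial markers were at least 2-fold higher. Among barcodes with at least 100 CP10k of microglial RNA, Cldn5 and the endothelial median went the other way, with log2 ratios of -1.51 and -1.19, so that direction rests on the cells with little microglial RNA. Vtn, a mural gene, stood at 1.24 against 0.0631 with UMIs in 20 shared cells, while 98.8% of the shared UMIs of the chemokine Ccl24 came from 1 cell. Interferon response genes were split, with 12 of 33 higher and a median of -0.04.

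**Figure D4:**
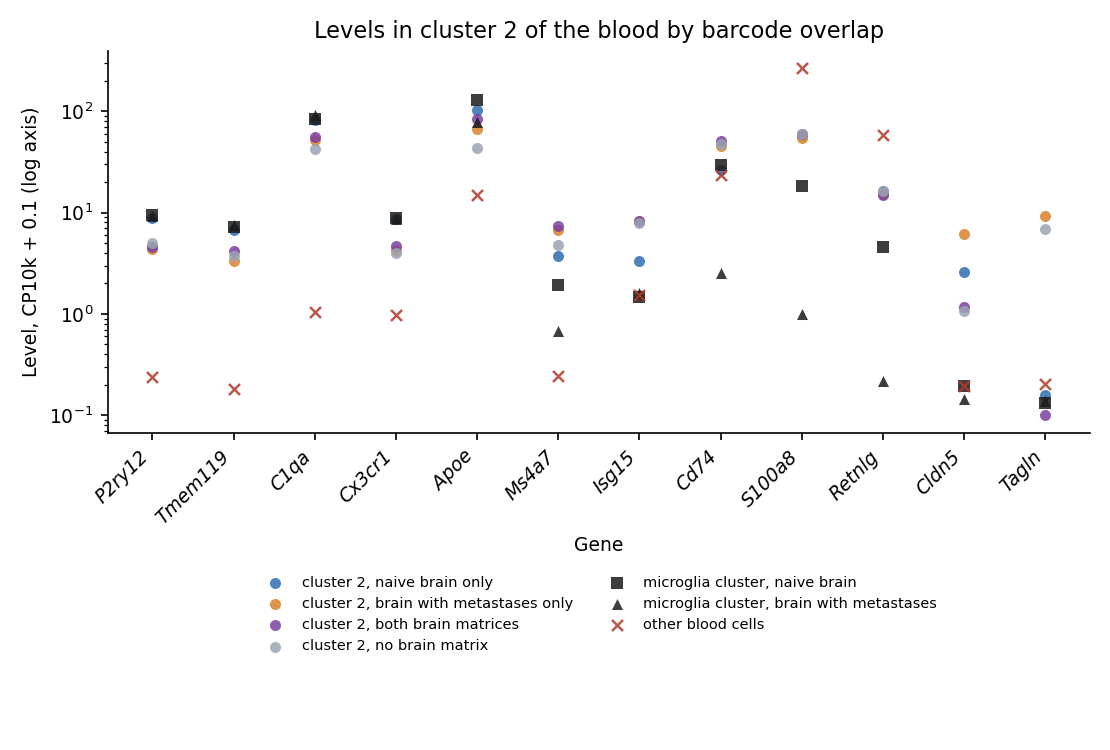
Level of 12 genes (x axis) as CP10k + 0.1 on a log axis in the 4 overlap groups of cluster 2 (circles), the microglia clusters of the naive brain (square) and of the brain with metastases (triangle), and all other blood cells (cross). P2ry12, Tmem119, C1qa and Cx3cr1 of every overlap group lie at or below the brain microglia. P2ry12, Tmem119 and C1qa lie far above the pooled other blood cells, with C1qa at 42.9 to 81.5 against 0.948 CP10k. Cx3cr1 lies above that pool (0.867) but not above every blood type. It is 3.91 (3.37 to 4.52) in unshared cells and 3.64 (3.38 to 3.92) in nonclassical monocytes labelled depleted. Nonclassical monocytes labelled control have 0.286. S100a8 at 54.6 to 60.4 lies above the microglia clusters.

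The brain matrix that shared the barcode went with other genes. Between barcodes shared with the brain with metastases only and with the naive brain only, 162 of 3282 genes (4.94%) were at least 2-fold higher in the former and 42 (1.28%) at least 2-fold lower (6.22% either way), with a median of 0.07. All 16 microglia markers were lower in the former, 6 of them by 2-fold, with a median of -0.93. Interferon response genes were higher in 29 of 32, 9 of them by 2-fold, with Isg15 at 8.17 against 3.23 CP10k. Ly6c2 stood at 6.26 against 2.03, and all 10 classical monocyte markers were higher. Tagln stood at 9.11 against 0.0594, and all 8 mural markers were at least 2-fold higher. Mural markers nearly absent from the naive group were measured only through the other group, which favours such a count. Ms4a7, a gene of border and tumour-associated macrophages, stood at 6.62 against 3.65. The mix of cells in the 2 groups differed as well, and its part in these values was not tested.

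Within cluster 2 the arms were close. Of 3140 genes, 23 (0.732%) were at least 2-fold higher under the depleted label and 21 (0.669%) at least 2-fold lower (1.4% either way), with a median log2 ratio of 0.01. None of the 16 microglia markers reached 2-fold, 6 being higher and 10 lower, with a median of -0.02. P2ry12 stood at 5.52 CP10k in the control-labelled arm (5.14 to 5.93) and 5.94 in the depleted-labelled arm (5.55 to 6.35), Tmem119 at 4.43 and 4.39, and C1qa at 60.8 and 58.4. Cx3cr1, whose promoter drives the recombinase, stood in cluster 2 at 5.03 (4.66 to 5.41) and 5.86 (5.47 to 6.27), whose intervals do not overlap. In nonclassical monocytes it stood at 0.286 (0.157 to 0.480) in 95 cells labelled control and 3.64 (3.38 to 3.92) in 386 labelled depleted, and in classical monocytes at 0.170 and 2.15. Genes furthest apart had few cells behind them: 96.9% of the Ccl24 UMIs on the control side came from 1 cell, and 80.4% of the Ctsk UMIs on the depleted side. Dcn, a matrix protein of fibroblasts, was 0.392 and 1.74. S100a8 was 62.1 and 53.0, and neutrophil RNA of at least 100 CP10k was found in 107 (45.7%) and 88 (37.6%) of 234 barcodes. Since 91 of 192 checked barcodes had the other arm in the naive brain matrix, a difference between the arms of cluster 2 cannot be told apart from the assignment of the barcodes.

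Set against brain microglia, the cluster 2 cells compared had less of the microglial programme and more of several others. The matrices were normalized separately, and barcodes of the compared brain matrix were left out on both sides. For the naive brain this kept 276 cluster 2 cells, 152 of them with at least 100 CP10k of microglial RNA. The whole cluster had 313 such cells of 468. Left out were, among others, the barcodes of the naive brain only, 86.3% of which had that RNA. Against 695 cells of the microglia cluster of the naive brain, 276 cluster 2 cells had 430 of 3458 genes at least 2-fold higher (12.4%) and 88 at least 2-fold lower (2.54%), 15% either way, with a median of 0.01. All 16 microglia markers and all 33 homeostatic genes were lower, 10 and 16 of them by 2-fold, with medians of -1.06 and -0.96. All 12 neutrophil markers were higher, 11 by 2-fold, and all 10 classical monocyte, 10 endothelial and 8 mural markers were at least 2-fold higher. Markers nearly absent from naive microglia were measured only through cluster 2, which favours such counts. Interferon response genes were at least 2-fold higher in 18 of 32. Kept to the cluster 2 barcodes with at least 100 CP10k of microglial RNA, a filter that itself raises the microglia markers, the neutrophil median was 2.76, with 11 of 12 past 2-fold. The microglia and homeostatic medians were then -0.33 and -0.36, with 0 of 16 and 0 of 33 genes at least 2-fold lower. At least 2-fold higher were 1 of 2 measured endothelial, 3 of 3 mural and 7 of 9 classical monocyte markers.

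The microglia cluster of the brain with metastases gave a like picture. It held 451 cells, from clusters built here, with P2ry12 at 9.23 CP10k, and without shared barcodes 441 of them were set against 220 cluster 2 cells. Of those 220 cells, 165 had at least 100 CP10k of microglial RNA, so the 2 comparisons used unlike parts of cluster 2. Of 3136 genes 331 were at least 2-fold higher in those cluster 2 cells (10.6%) and 9 at least 2-fold lower (0.287%), 10.8% either way, with a median of -0.04. Its microglia markers were all 16 higher than in cluster 2, none by 2-fold, with a median of -0.42. All 12 neutrophil markers were at least 2-fold higher in cluster 2. Those nearly absent from the microglia were measured only through cluster 2, which favours such a count. S100a8 stood at 59.5 in the 220 cells and 0.885 in those microglia, and Retnlg, a neutrophil resistin-like gene, at 16.1 and 0.116. MHC class II genes were at least 2-fold higher in 5 of 6, with a median of 3.62, which was 0.41 when a coarser clustering gave 801 microglia and 2.54 when a finer one gave 554. Interferon response genes were at least 2-fold higher in 11 of 29. Cst3, an abundant protease inhibitor of microglia, was lower, with a log2 ratio of -1.07.

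The same barcodes could also be followed into the brain matrices. Of the 192 in the naive brain, 121 (63.0%) lay in its microglia cluster, 46 in a classical monocyte cluster and 17 in a cluster led by Mgp, Tagln and Acta2. Across those 192, levels from the blood matrix and from the naive brain matrix differed by 2-fold in 0 of 3145 genes in either direction (0.0%). Their raw totals were equal in both annotations, so this compares only the separate depth corrections and is no result about the cells. Of the 248 in the brain with metastases, 58 lay in 1 cluster of 100 cells that had all 16 microglia markers but was led by neutrophil genes, with S100a8 at 150.4, C1qa at 71.4 and P2ry12 at 7.41 CP10k. A further 53 lay in a cluster led by Cxcl9, Ccl7 and Ms4a7, with P2ry12 at 0.412, and 27 in one led by B cell genes that also had C1qa at 20.6. The microglia cluster of that brain held 10. The shared barcodes of cluster 2 thus lay in several clusters of each brain matrix.

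Within the naive brain matrix itself, the microglia cluster could be split by whether the barcode was also in cluster 2 of the blood, which avoids the separate normalization. In 121 such cells against 695 not in the blood matrix, 85 of 3211 genes (2.65%) were at least 2-fold higher and 8 (0.249%) at least 2-fold lower (2.9% either way), with a median of -0.03. All 16 microglia markers were slightly lower, none by 2-fold, with a median of -0.15. Of 11 neutrophil markers 9 were at least 2-fold higher. S100a9 stood at 125.7 against 11.2 CP10k, S100a8 at 79.3 against 7.32, Cxcr2 at 2.95 against 0.181 and Retnlg at 19 against 1.93. Ngp, a granule protein of immature neutrophils, went the other way with a log2 ratio of -1.81. Naive microglia that were not in the blood matrix had a median of 89.9% of their non-antibody tag counts from the hashtags of the naive brain, and the 125 that were in it had 52.0%. A lower share of naive hashtags is part of being listed in the blood matrix. These are values of groups, neutrophil RNA was not set against hashtags barcode by barcode, and whether it came from a second cell was not tested.

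**Figure D5:**
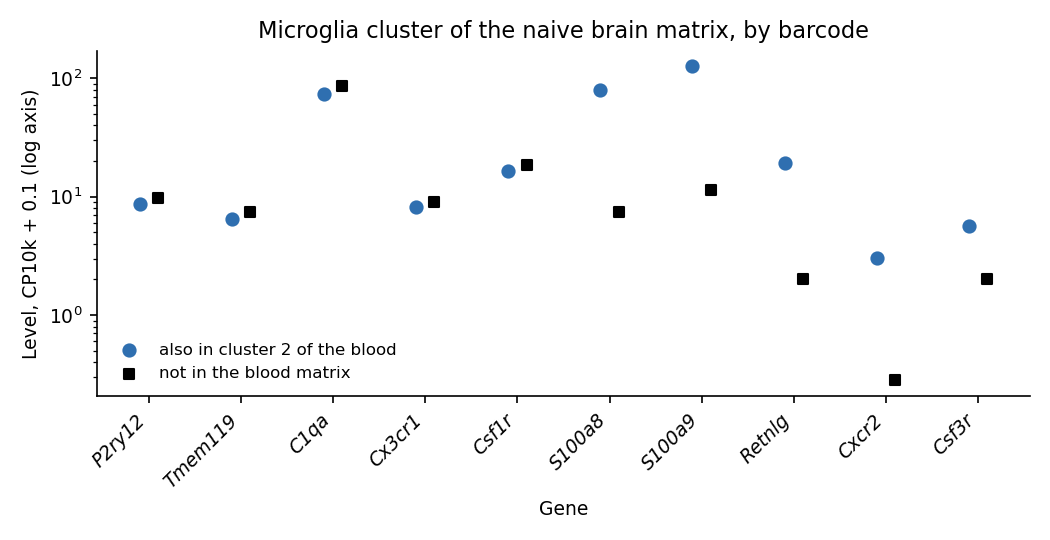
Level of microglial and neutrophil genes (x axis) as CP10k + 0.1 on a log axis in the microglia cluster of the naive brain matrix, for the 121 barcodes also in cluster 2 of the blood (circles) and the 695 not in the blood matrix (squares). The microglial genes nearly coincide, while S100a8 stands at 79.3 against 7.32 and Retnlg at 19 against 1.93.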

How the data were processed

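RNA, antibody tags and hashtags were read from 1 droplet pool. The tools were Cell Ranger 3.1 and Seurat 3.1.1 and the genome build mm10, per the submitters' processing notes. What the authors deposited were 3 matrices of the natural log of 1 plus a corrected UMI count, corrected for depth within each matrix; undoing the log gave whole numbers within 1e-06 for 100% of values. Raw counts per cell (RNA, antibody, hashtag) and the corrected total, a score, were taken from the authors' deposited annotation, with clusters, arms and gates; 44 of its columns were not used. The plan had assumed raw counts, and corrected UMIs were used instead.

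Corrected UMIs were summed over cells and scaled to 10000 (CP10k). Log2 ratios used a pseudocount of 0.1 CP10k, over genes at 0.5 CP10k or more on at least 1 side. Ratios understate the change of low genes. A gene near 0.1 CP10k on 1 side is measured only through the other side, which puts it past 2-fold. A fold of 2 was counted, with no test. Clusters were named from markers (at least 3 at 2-fold). The brain with metastases was clustered with scanpy 1.11.5, igraph 0.11.9 and scikit-learn 1.9.0 (2000 variable genes, 30 components, 20 neighbours, Leiden resolution 1.0, with 0.5 and 2.0 as alternatives). Its cells were not mapped to arms. Named genes were the markers, list members and the 10 highest and 10 lowest ratios. Members and lists were chosen with earlier results of these data known. In simulated counts 200 of 200 genes changed 4-fold were recovered in each of 5 comparisons, with at most 3 unchanged genes counted. The simulation drew summed counts without spread between cells, and its changes were larger than the 2-fold counted. It thus checked the calculation and gives no error rate for the real cells. Gene positions are those of RefSeq for GRCm38.p6, and hashtags those of the authors' deposited list. Results on some items are not reported here.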

Additional observations from a re-analysis of the deposited data

How the results depend on the processing

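Of 65 summary values recomputed under the alternatives, 32 stayed within their interval or 1.5 times the count and 33 moved; of the gene and list ratios 1184 stayed, 204 moved and 3 reversed. The share of cluster 2 in a brain matrix (82.7%) was 41.0% for the naive brain alone, 53.0% for the brain with metastases alone and 88.0% for cells with hashtag totals at or above the median. The share of cluster 2 in the blood was 4.33% (control) and 3.48% (depleted) without shared barcodes, was 13.3% and 13% at or above the median hashtag total, and 5.24% and 5.98% with at least 50% blood hashtags. The lymphoid gate held 45.7% of unshared cells and 38.1% of those with at least 50% blood hashtags. Counts past 2-fold depended on the floor and pseudocount. With a pseudocount of 1, a minimum of 1 CP10k and no minimum, they were 283, 577 and 1456 against the other blood cells (887 as reported), 35, 74 and 337 between shared and unshared barcodes (141), 6, 27 and 90 between arms (44), 168, 328 and 1051 against naive microglia (518), and 126, 192 and 851 against microglia of the brain with metastases (340). Sharing with the naive brain alone gave 333 and at least 50% blood hashtags 762 between shared and unshared barcodes. Between arms, unshared barcodes alone gave 309 and at least 50% blood hashtags 290. At least 100 CP10k of microglial RNA gave 239 against naive microglia and 225 against those of the brain with metastases, where barcodes in no other matrix gave 673. The reversed values were the MHC class II median against the other blood cells, -0.70 with at least 50% blood hashtags, and, between shared and unshared barcodes with at least 100 CP10k of microglial RNA, Cldn5 at -1.51 and the endothelial median at -1.19. Clustering the brain with metastases at Leiden resolution 0.5 moved 12 of 30 ratios against its microglia, among them the neutrophil median, from 4.35 to 2.79, and the classical monocyte median, from 3.52 to 1.4; resolution 2.0 moved 3 of 30. The cause was not tested. The alternatives on the share of blood hashtags and on microglial RNA were chosen after seeing the data. The gate under the earlier annotation was not run, since that table has no gate column. No paired analysis was possible because each arm and tissue was 1 hashed sample.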

Other observations

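Cluster 2 was not uniform along its share of blood hashtags. In the 143 cells below 10%, Ms4a7 stood at 10.1 CP10k, Cxcl9 at 12, Isg15 at 10.7 and Cd74 at 69.0. In the 81 cells between 50% and 75% the same genes stood at 0.375, 0.0625, 3.85 and 9.43, while P2ry12 was highest there, at 9.45 against 3.48 below 10%. In the 45 cells at 75% or more, P2ry12 was 5.89, C1qa 44.0 and Tagln 18.5, and 35.6% of the cells had endothelial and mural RNA of at least 100 CP10k, against 6.99% below 10%. Depth moved with this share, from a median of 30818 raw UMIs and 8942 antibody tags below 10% to 13935 and 2310 at 75% or more, and its part in these levels was not tested. S100a8 lay between 38.9 and 76.7 in all 5 ranges. The bins were chosen after the data were seen.

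Border macrophages of the meninges and vessels share genes with microglia, and 6 of their 10 markers were measured. Lyve1, Cd163, Cbr2 and Folr2 lay under the floor of 0.5 CP10k, so the counts leave them out. In barcodes with microglial RNA alone they stood at 0, 0.0094, 0.216 and 0.366 CP10k. Against the other blood cells 4 of the 6 were at least 2-fold higher and 1 at least 2-fold lower, with a median log2 ratio of 2.65, and against naive microglia 4 were at least 2-fold higher. Mrc1, the mannose receptor, stood at 0.543 CP10k in cluster 2 and 0.0373 in the other blood cells. Pf4, which platelets also make, stood at 9.68 in unshared and 1.12 in shared cells.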
